A study of Rattus norvegicus with 30 samples.

Results

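Chondrogenesis and adipogenesis were compared directly at 72 h after induction of rat bone marrow mesenchymal stem cells (BMSCs), in the 3 samples labelled CH at 3 days and the 3 samples labelled AD at 3 days, 6 of the 30 samples of the series. The BMSCs came from the femurs and tibias of 3 female Sprague Dawley rats aged 3 weeks, were induced at passage 2, and were kept in commercial chondrogenic (CH) or adipogenic (AD) differentiation medium, whose compositions are not given in the sources used here. Lineage and medium therefore cannot be told apart in this comparison. The series also holds an osteogenic course (OS), the undifferentiated cells that all courses started from (0 h), and earlier samples of CH and AD (3 h and 12 h). Apart from their part in the fit, these earlier samples appear here only beside the 72 h values. Each sample combined 3 cultures, per the study's methods, and the labels do not tie a replicate number to a rat, so p-values measure the spread between pooled samples. The main fit used all 30 samples, so its p-values and SE reflect the spread within all groups of the series, not that of the 6 samples alone.

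Chondrogenesis is directed by the transcription factor Sox9, which with its partners Sox5 and Sox6 drives the genes of cartilage matrix such as type II and type IX collagen, aggrecan and Comp, and TGF-beta is its classical inducer in culture. Adipogenesis runs through the nuclear receptor Pparg and the C/EBP factors to genes of lipid uptake, triglyceride synthesis and storage, and is classically induced with a glucocorticoid, insulin and an agent that raises cAMP. The 72 h time point lies early in both courses, before mature cartilage or lipid-filled adipocytes form in such cultures.

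The values were read as CPM, reads scaled to a common total for each sample, with 1 read worth the same for every gene of a sample, and the 6 samples were built from 3899609 to 6313113 reads. The listed genes held 60.5 to 67.7% of the reads of the CH samples but 38.9 to 49.0% of those of the AD samples, so counts of higher and lower genes depended on the scaling. The counts of each gene list at 72 h are therefore followed by their range in limma over CPM, quantile normalization, median-ratio scaling and the same sum over the listed genes (the scalings). Counts and medians of edgeR and DESeq2 on the recovered reads, which change the model and leave out the added 1 CPM as well, are named where they lie outside that range. The floor of 3 reads was 0.475 to 0.769 CPM, which covers counting error only. AD replicate 3 lay apart. It differed from the mean of the other AD samples by more than 2 log2 units in 74 of 4363 genes, lower in 71 and higher in 3, against 13 genes for each of the other AD samples and 0, 0 and 1 for the CH samples. Its log2 values correlated with those of the other AD samples at a Pearson's r of 0.971 and 0.972 across genes, against 0.989 between those, a description over genes that are not independent. Several transcripts that nearly every cell carries were listed near 0 in all 6 samples, such as Actb at 0.442 to 1.60 CPM and Vim at 0 to 1.28 CPM, while Rplp0 reached 2075 to 3509 CPM. A value near 0 is therefore not read as absence of expression.

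The labels were checked against marker genes. Of the stromal markers, Thy1 stood at 2579, 2317 and 2243 CPM in CH and 387, 431 and 462 CPM in AD, and Itgb1 and Cd44 were also well above the floor, whereas Pdgfra and Eng stayed below 1 CPM. The summed chondrocyte markers (9 listed) reached 1197 to 1563 CPM in CH and 15.8 to 19.8 CPM in AD, but Sox9 made up nearly all of this and the defining genes Acan, Matn3 and Hapln1 were listed at 0 in all 6 samples. The summed adipocyte markers (8 listed) reached 12.8 to 37.2 CPM in AD and 0.663 to 1.54 CPM in CH, with Cidec at 0 and Pparg at 0 to 0.950 CPM. Most defining markers of a differentiated chondrocyte or adipocyte were thus at or near 0 in these files, and the groups are called CH and AD. Osteoblast markers summed to 201 to 319 CPM in CH and 1.27 to 3.92 CPM in AD, nearly all of the CH sum being Ibsp, while Sp7, Bglap and Dmp1 were listed at 0 in all 6 samples. Summed haematopoietic markers lay at 0.445 to 0.663 CPM in CH and 2.38 to 4.81 CPM in AD, endothelial markers at 1.99 to 3.33 and 3.72 to 4.10 CPM, and epithelial markers at 0.222 to 0.663 and 0 to 0.178 CPM. Neural markers summed to 116 to 128 CPM in CH and 11.2 to 25.9 CPM in AD, nearly all of it Tubb3, with Sox10, Mbp and Gfap at 0. The part of other cell types in the results was not tested.

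Of 4363 tested genes, 1113 (25.5%) passed a log2 fold change of 1 in size and an adjusted p of 0.05 in limma, 720 (16.5%) higher in CH and 393 (9.01%) higher in AD. The shares of 16.5% and 9.01% are the base rate for each list count at 72 h below. The samples of the groups did not overlap in 1081 of the 1113. Over all tested genes that was so in 2295 (52.6%), with CH higher in 1433 (32.8%). The median log2 fold change over all tested genes was 0.08. The excess of genes higher in CH moved with the scaling. Median-ratio scaling gave 631 higher in CH (14.5%) and 570 higher in AD (13.1%), and quantile normalization gave 569 (13.0%) and 494 (11.3%). The same sum over the listed genes gave 500 (11.5%) and 742 (17.0%). edgeR on the recovered reads gave 669 (15.3%) and 652 (14.9%), and DESeq2 on them 649 (14.9%) and 654 (15.0%). These settings shifted the median of all genes by -0.14 to -0.33, and single genes moved by more than that. Without AD replicate 3, 664 genes were higher in CH (15.2%) and 417 higher in AD (9.56%), and 974 of the 1113 genes were called in both fits, none with a changed sign. A log2 fold change is given on the log2(CPM + 1) scale with its SE, CH minus AD, and understates the change of low genes. In bulk RNA, a smaller share of cells of a type and less RNA per cell cannot be told apart.

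The largest differences in favour of CH included several secreted and cell surface proteins. The genes of largest difference in both directions were chosen among those whose samples did not overlap. Angptl7, a secreted angiopoietin-like protein, stood at 9685, 7289 and 7432 CPM in CH and at 46.3, 31.0 and 1.74 CPM in AD, a log2 fold change of 8.97 ± 0.56. It was high in every CH sample, and AD replicate 3 lay below the other AD samples, without which the value was 7.70. Tgfbi, a matrix protein named for its induction by TGF-beta, had 1616, 1559 and 1485 CPM in CH against 3.38, 5.14 and 0.634 CPM in AD (8.78 ± 0.30). The lowest CH sample was far above the highest AD sample. Sox9, the master regulator of the lineage, read 1489, 1256 and 1152 CPM in CH and 15.0, 15.4 and 19.0 CPM in AD, a 78.9-fold ratio of means (6.22 ± 0.14, limma adjusted p = 1.13e-24), and stood at 46.6, 46.8 and 50.8 CPM at 0 h. The groups were therefore far apart, with the 0 h samples between them and nearer to AD.

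Lama1, the laminin alpha chain of basement membranes, read 222, 217 and 213 CPM in CH and 0.712, 1.06 and 0.792 CPM in AD (6.88 ± 0.31). Ibsp, the bone sialoprotein gene, read 318, 201 and 221 against 1.78, 2.13 and 0.475 CPM (6.70 ± 0.28). In both genes all AD samples were below 3 CPM. Dclk3, a kinase of the doublecortin-like family, had 146, 116 and 106 CPM in CH but only 2 reads over the AD samples, and its ratio of pooled CPM was 1071 (95% interval 296 to 8850.0). Sema7a, a membrane-anchored semaphorin, had 220.0, 208 and 200.1 against 1.96, 1.60 and 1.74 CPM (6.25 ± 0.17), and Nptx1, a neuronal pentraxin, 104, 93.3 and 89.8 against 0.356, 0.355 and 0.317 CPM (6.17 ± 0.22). The group closed with Pdgfrl, a PDGF receptor-like protein (5.84 ± 0.30), Cd109, a surface protein that binds TGF-beta (5.79 ± 0.25), and the uncharacterised LOC102547056 (6.57 ± 0.31).

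Among the genes of largest difference in favour of AD were enzymes, lipid genes and immune mediators. Akr1cl, an aldo-keto reductase, stood at 259, 268 and 378 CPM in AD and had a single read over the CH samples, for a ratio of pooled CPM of 3939 (95% interval 707 to 155605). Aox1, an aldehyde oxidase, had 4010.5, 4085 and 6352 CPM in AD and 38.5, 34.7 and 40.9 CPM in CH (-6.92 ± 0.20). Lpl, the lipoprotein lipase that frees fatty acids for uptake, had 1160.4, 1387 and 3216 CPM in AD and 13.6, 13.5 and 14.7 CPM in CH (-6.86 ± 0.32, limma adjusted p = 2.79e-17). For Aox1 and Lpl, AD replicate 3 was the highest of the AD samples and the CH samples hardly differed among themselves. Against the 720.3 ± 56.7 CPM of Lpl at 0 h (mean ± SD, n = 3), the AD samples were higher and the CH samples lower.

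Tgfbr3, the TGF-beta co-receptor betaglycan, had the smallest SE of these 12 genes in the fit of all 30 samples, at 5295, 5633 and 5349 CPM in AD and 76.4, 66.5 and 79.2 CPM in CH (-6.18 ± 0.10). Plpp3, a lipid phosphate phosphatase, read 2615, 2654 and 1666 against 55.4, 62.3 and 57.8 CPM (-5.25 ± 0.12). Ptn, the growth factor pleiotrophin, read 3037, 3041 and 1559 against 60.5, 65.7 and 65.6 CPM (-5.23 ± 0.21). For all 3 genes the lowest AD sample was at least 23.7-fold above the highest CH sample. Enpp3, an ectonucleotidase, read 991, 1101 and 576 against 20.8, 16.6 and 22.01 CPM (-5.38 ± 0.22). Vat1l stood at 73.7, 85.1 and 14.1 CPM in AD and had no read in CH, its AD mean being at least 82.4-fold higher than the 3-read floor per CH library. AD replicate 3 was its lowest AD sample, and its log2 fold change was -5.52 with that sample and -6.33 without it. C4b, complement component C4, had 117, 153 and 34.7 CPM in AD and 2 reads over the CH samples, a ratio of pooled CPM of 639.8 (95% interval 177 to 5287).

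In the remaining 3 genes of this set, as in Vat1l, AD replicate 3 lay more than 2 log2 units below the mean of the other AD samples. The small leucine-rich proteoglycan Lum had 1355, 1513 and 27.1 CPM in AD and 8.21, 9.29 and 8.67 CPM in CH, a log2 fold change of -5.31 ± 0.75 with AD replicate 3 and -7.20 without it. The chemokine Cxcl6 had 275, 326 and 8.08 CPM in AD and 1 read over the CH samples, for a ratio of pooled CPM of 2525 (95% interval 453 to 99776). The secreted Wnt antagonist Frzb had 673, 623 and 118 CPM in AD and 9.74, 6.85 and 8.89 CPM in CH (-5.29 ± 0.40, and -6.11 without that sample). AD replicate 3 was the lowest AD sample in all of them.

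**Figure D1:**
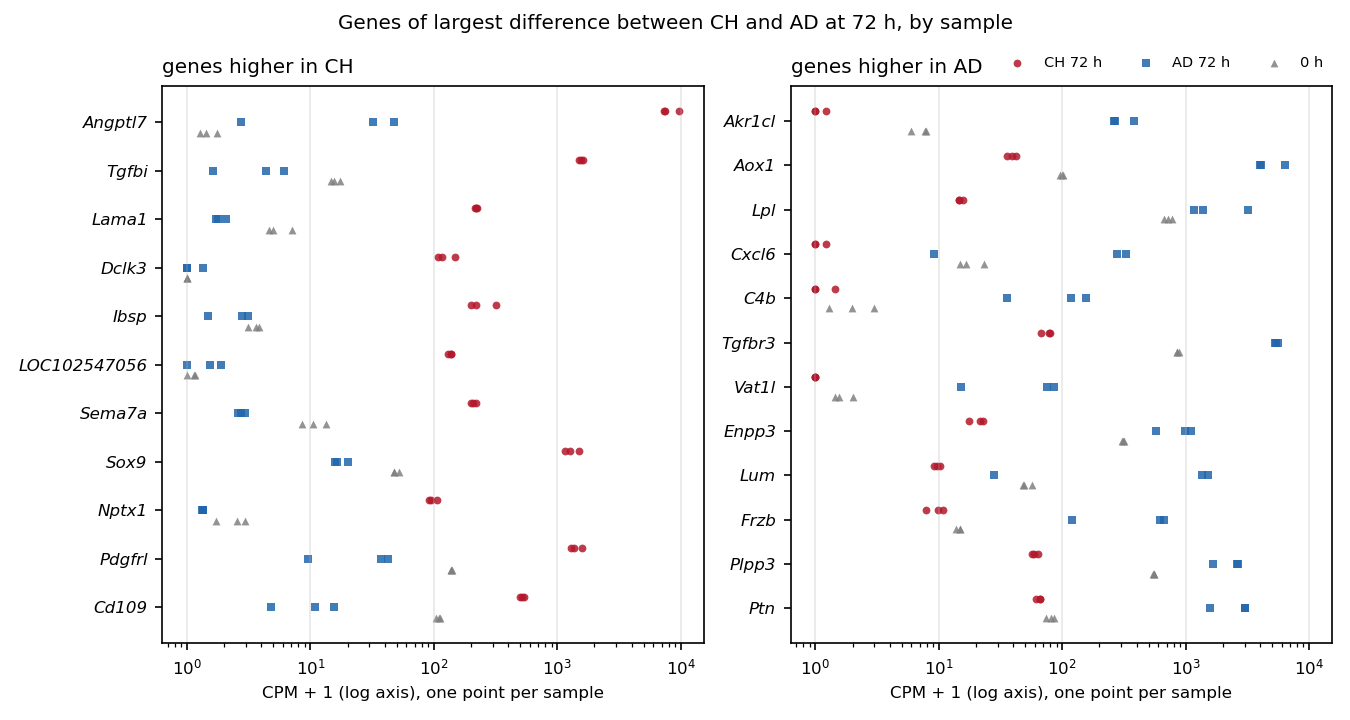
CPM + 1 on a log axis for 11 of the genes of largest difference higher in CH and the 12 higher in AD, 1 point for each of the 3 samples of CH at 72 h (circles), AD at 72 h (squares) and 0 h (triangles). The genes were chosen for samples that do not overlap between CH and AD, and AD replicate 3 is the single AD square far left of the other squares for Lum, Cxcl6, Frzb and Vat1l.

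Of the 18 tested chondrogenic regulators, 13 were higher in CH and 1 was higher in AD, with a median log2 fold change of 1.37 (11 to 13 and 1 over the scalings, with a median of 1.2 to 1.37). In edgeR and DESeq2 the median was 2.66 and 2.68. Scx, the tendon and early cartilage factor scleraxis, read 26.7, 24.3 and 27.6 CPM in CH and 0.356, 0.177 and 0.475 CPM in AD (4.35 ± 0.33). The related clock and hypoxia factors Bhlhe40 and Bhlhe41 read 736, 629 and 650.0 against 52.3, 66.1 and 128 CPM (3.12 ± 0.18) and 90.0, 53.9 and 57.6 against 4.10, 5.85 and 3.96 CPM (3.57 ± 0.28). The samples did not overlap in any of these genes, as in 1081 of all 1113 called genes. Runx3, a factor of chondrocyte maturation, was low throughout, at 1.03, 4.42 and 3.11 CPM in CH and 0.534, 0.355 and 0 CPM in AD, yet passed (1.48 ± 0.32). Gbx2, a homeobox factor, had 2.31, 0.221 and 1.11 CPM in CH and no read in AD, at least 2.36-fold higher over the floor, and lost its call under 5 of the 18 alternatives, among them without CH replicate 1 (0.68). The factor higher in AD was Gsc, the homeobox gene goosecoid, at 20.1, 14.2 and 22.3 against 4.62, 3.76 and 2.45 CPM (-2.11 ± 0.27). Sox6 was at or below 0.442 CPM in all 6 samples and could not be tested, and Sox5 and Runx2 were not analysed here.

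Of the 9 tested genes of cartilage matrix, 6 were higher in CH and 1 higher in AD, with a median of 2.37 (6 and 1 over the scalings, with a median of 2.24 to 2.43). In edgeR and DESeq2 the median was 5.03 and 5.18, and DESeq2 called none higher in AD. Comp, which binds collagen in the cartilage matrix, read 25.1, 20.3 and 19.3 CPM in CH and 0.712, 0.532 and 0.158 CPM in AD (3.96 ± 0.23, a 46.2-fold ratio of means). Col9a2, a chain of type IX collagen, read 46.4, 32.1 and 24.0 CPM in CH and had no read in AD, at least 66.5-fold higher over the 3-read floor. Matn4, a matrilin, read 14.4, 9.95 and 9.78 against 1.42, 0.355 and 0.475 CPM (2.85 ± 0.28). The levels of Comp, Col9a2 and Matn4 were modest beside Sox9. Angptl7, given above at 7289 to 9685 CPM in CH, made up nearly all of the sum of this list there (7366 to 9783 CPM). Prg4, the lubricin gene of the cartilage surface, went the other way, with 1.42, 1.95 and 5.23 CPM in AD and 2 reads over the CH samples, a ratio of pooled CPM of 19.1 (95% interval 5.03 to 162), although its call was lost in DESeq2. Col2a1 was listed at 0.769, 0 and 0.222 CPM in CH and 0 in AD, and Col10a1 at 0.256 CPM in a single CH sample and 0 elsewhere. Of 13 tested genes of proteoglycan and hyaluronan synthesis, 1 was higher in CH and 2 in AD (1 and 2 to 4 over the scalings), against 16.5% and 9.01% of all tested genes. Chsy1, which builds the chondroitin sulfate chain, read 1082, 1060.1 and 1040.4 against 190.3, 218 and 186 CPM (2.42 ± 0.11), and the genes higher in AD were the sulfatase Sulf1 (-1.71 ± 0.27) and the dermatan sulfate epimerase Dse (-1.03 ± 0.29), whose call was lost without CH replicate 1 or 3 or AD replicate 1 or 2.

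**Figure D2:**
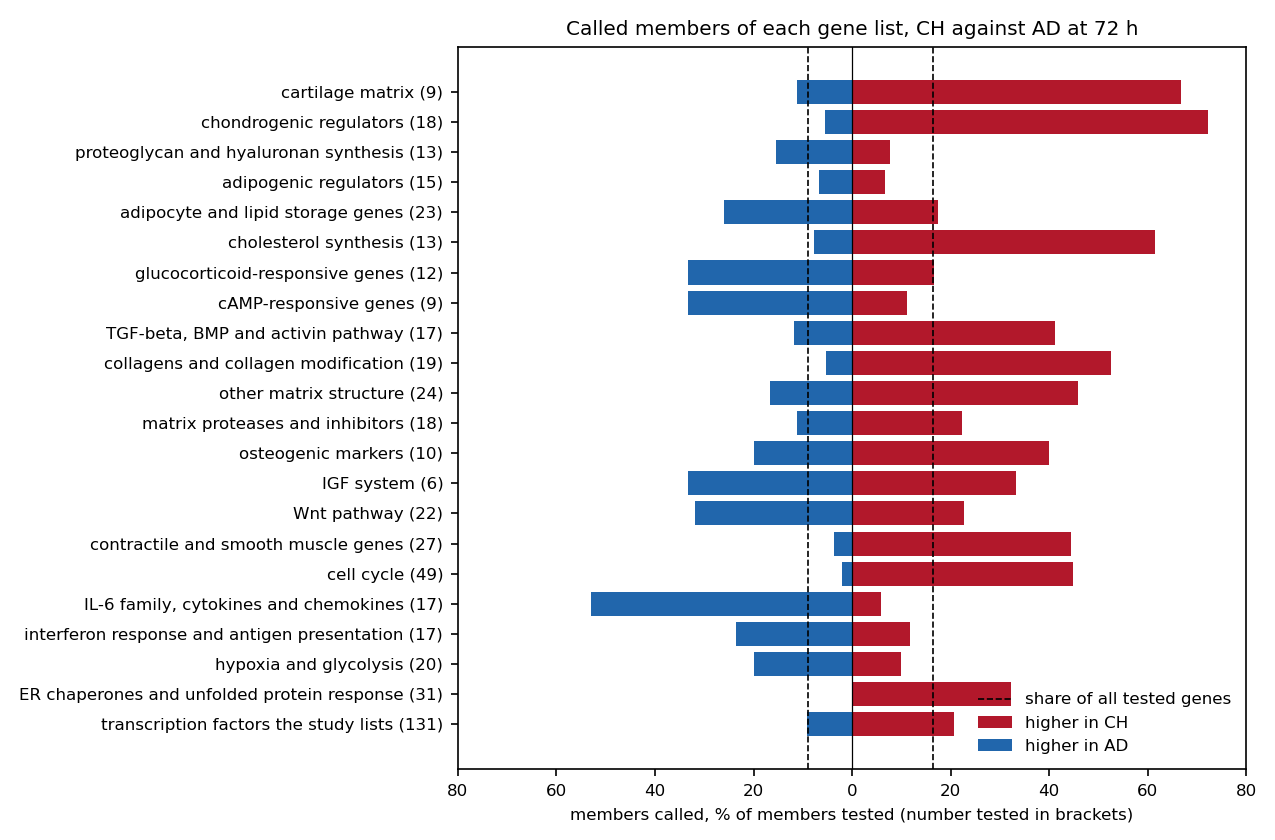
Share of the tested members of each gene list that were called higher in CH (right, red) or higher in AD (left, blue) at 72 h, in % of members tested. The dashed lines mark the share of all tested genes, 16.5% and 9.01%, and the lists of chondrogenic regulators (13 of 18) and cytokines (9 of 17) reach farthest from them on their sides.

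The TGF-beta, BMP and activin pathway had 7 of 17 tested genes higher in CH and 2 higher in AD (5 to 7 and 2 to 3 over the scalings). Tgfb1, the ligand, read 747, 617 and 605 CPM in CH and 68.0, 70.0 and 50.1 CPM in AD (3.38 ± 0.14, a 10.5-fold ratio). Gdf6, a BMP-family ligand of joint formation, read 4.62, 5.53 and 4.45 against 0.356, 1.60 and 0.158 CPM (1.87 ± 0.33), and Ctgf, a matricellular target gene, 25.4, 36.3 and 43.6 against 10.1, 10.6 and 3.48 CPM (2.08 ± 0.35). The CH samples were above every AD sample in each, and the groups did not overlap in 1081 of all 1113 called genes. On the other side stood the co-receptor Tgfbr3, given above, and the stress cytokine Gdf15, at 9.79, 10.8 and 13.3 against 2.56, 1.33 and 1.33 CPM (-2.19 ± 0.31).

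Collagens and their modifying enzymes had 10 of 19 tested genes higher in CH and 1 in AD, with a median of 1.35 (7 to 10 and 1 to 2 over the scalings, with a median of 0.90 to 1.35, and 10 and 3 in DESeq2). Without AD replicate 3 the counts were 8 and 1, with a median of 0.93. Col24a1, a fibrillar collagen, read 32.6, 29.6 and 23.6 CPM in CH and 2.14, 1.95 and 0.634 CPM in AD (3.57 ± 0.27), and Col8a2, a short-chain collagen, 798, 759.9 and 703 against 212, 209.8 and 109 CPM (2.15 ± 0.29). Adamts14, a procollagen peptidase, followed at 2.34 ± 0.32, and Col4a3, a basement membrane chain, had 3.59, 5.31 and 5.11 CPM in CH and 3 reads over the AD samples, a ratio of pooled CPM of 27.6 (95% interval 9.03 to 138). The gene higher in AD was Col4a2 (-1.10 ± 0.41), whose call was lost without AD replicate 3 (-0.73) or CH replicate 1 or 2. Of the other structural matrix genes, 11 of 24 were higher in CH and 4 higher in AD (10 to 11 and 4 to 7 over the scalings), and in DESeq2 the counts were 10 and 8. The periostin gene Postn read 48.0, 46.9 and 54.5 against 1.07, 1.24 and 0.158 CPM (4.85 ± 0.29). The matricellular Nov read 828, 791 and 743 against 106, 107 and 8.87 CPM (4.03 ± 0.44, 2.88 without AD replicate 3), and Itgbl1, an integrin beta-like secreted protein, 767, 743 and 708 against 163, 160.0 and 7.92 CPM (3.58 ± 0.54, 2.19 without it). AD replicate 3 had the lowest value of both genes. Beside Lum, the AD side held Lama4 (-1.45 ± 0.25), Wisp2 (-1.23 ± 0.30) and Mfap2, with 3 reads over the CH samples and a ratio of pooled CPM of 12.0 (95% interval 3.88 to 60.2), all below 6 CPM in every sample. The call of Wisp2 was lost without CH replicate 1 (-0.93) or AD replicate 2 (-0.82), and those of Wisp2 and Mfap2 in the fit of the 6 samples alone. Mgp, the matrix Gla protein that restrains calcification, was abundant in both, at 10999.6, 8740.2 and 7896 CPM in CH and 5698, 4762 and 9420.4 CPM in AD, and did not pass (0.52 ± 0.23, limma adjusted p = 0.0586), with AD replicate 3 inside the CH range.

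Matrix proteases and their inhibitors had 4 of 18 higher in CH and 2 in AD (4 and 2 to 3 over the scalings, 4 and 4 in DESeq2), against 16.5% and 9.01% of all tested genes. Adamts17 read 84.6, 74.5 and 66.5 CPM in CH and 0.178, 0.887 and 0.158 CPM in AD (5.79 ± 0.23), and the aggrecanase Adamts4 433, 413 and 390.5 against 147, 146 and 109 CPM (1.63 ± 0.15). Serpinf1, the secreted serpin PEDF (2.0 ± 0.23), and Plau, the urokinase gene (2.0 ± 0.33, 1.28 without AD replicate 3), were also higher in CH. The collagenase Mmp13 was higher in AD, at 53.6, 64.4 and 3.96 against 1.03, 0.884 and 0.222 CPM (-3.96 ± 0.54, -5.16 without AD replicate 3), as was the stromelysin Mmp10 (-2.21 ± 0.43). Both had their lowest AD value in replicate 3. Of 10 tested osteogenic markers, 4 were higher in CH and 2 in AD (2 to 4 and 2 over the scalings). Beside Ibsp, CH was higher in Ankh, which exports pyrophosphate, with 1252, 1204 and 1117 against 144, 165 and 163 CPM (2.91 ± 0.11), in the homeobox gene Msx2 (1.19 ± 0.23, not called with the same sum over the listed genes) and in the stress factor Atf4 (1.35 ± 0.13). AD was higher in the homeobox gene Dlx3, at 42.9, 39.0 and 74.6 against 6.92, 7.30 and 9.34 CPM (-2.54 ± 0.30), and in Tnfrsf11b, the decoy receptor osteoprotegerin (-1.45 ± 0.19). Alpl was at or below 0.356 CPM in all 6 samples, and Sp7 was listed at 0.

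Contractile and smooth muscle genes had 12 of 27 higher in CH and 1 in AD (11 to 12 and 1 to 2 over the scalings), with a median of 0.46 that fell to 0.06 with the same sum over the listed genes. Myh10, the non-muscle myosin heavy chain IIB, read 15160.2, 12070.0 and 12082 CPM in CH and 914, 801 and 848 CPM in AD (3.93 ± 0.11, a 15.3-fold ratio), and Cnn1, calponin, 64.4, 56.8 and 57.6 against 3.03, 1.24 and 2.22 CPM (4.30 ± 0.17). At 0 h they read 7812, 7945 and 7498 and 87.1, 88.7 and 88.0 CPM, nearer to CH than to AD on the log2 scale. The cross-linker Actn4 read 353, 309.5 and 287 against 66.1, 74.3 and 60.5 CPM (2.22 ± 0.16), and Pdlim3 had 5.13, 5.08 and 3.56 CPM in CH and no read in AD, at least 8.93-fold higher over the floor. The gene higher in AD was Synpo2, at or below 2.14 CPM, with 3 reads over the CH samples and a ratio of pooled CPM of 7.84 (95% interval 2.45 to 40.0). Acta2 was listed at 0 in all 6 samples. Genes of the endoplasmic reticulum and the unfolded protein response had 10 of 31 higher in CH and 0 in AD in limma, but 4 to 10 and 0 to 1 over the scalings, and their median of 0.44 was -0.0029 with quantile normalization. Without AD replicate 3 the counts were 8 and 0, with a median of 0.29. Chac1, which degrades glutathione under stress, read 204, 201 and 202 CPM in CH and 34.0, 29.97 and 30.4 CPM in AD (2.65 ± 0.18), and Sec61b, a subunit of the translocon, 260.0, 167 and 163 against 48.3, 47.7 and 30.4 CPM (2.19 ± 0.17). Creb3l1, a membrane-bound factor that drives collagen secretion and is also among the chondrogenic regulators, read 2718, 1883 and 1935 against 678, 662 and 353 CPM (1.99 ± 0.18), and the disulfide isomerase Pdia5 followed at 1.67 ± 0.33. The samples did not overlap in any of these genes, as in 1081 of all 1113 called genes.

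Adipocyte and lipid storage genes had 6 of 23 higher in AD and 4 higher in CH. Over the scalings these were 6 to 8 and 2 to 4, with 8 and 2 under quantile normalization, median-ratio scaling and the same sum over the listed genes. Dgat2, which completes triglyceride synthesis, read 75.0, 94.9 and 78.6 CPM in AD and 8.72, 9.95 and 7.78 CPM in CH (-3.09 ± 0.19), and Gpd1, which supplies glycerol phosphate, 6.94, 7.27 and 6.18 against 1.03, 0.221 and 0.222 CPM (-2.43 ± 0.27). The adipokine Cfd read 32.9, 31.0 and 7.29 CPM in AD and had 1 read over the CH samples, a ratio of pooled CPM of 299 (95% interval 53.3 to 11822). Plin1, the lipid droplet coat protein, read 2.14, 1.42 and 3.48 CPM in AD and no read in CH, at least 3.35-fold higher over the floor. The samples did not overlap in any of these, as in 1081 of all 1113 called genes. The CH side held fatty acid carriers and synthetic enzymes. Fabp5 read 119, 92.2 and 79.6 CPM in CH and 11.8, 13.5 and 12.7 CPM in AD (2.83 ± 0.16), and Fabp3 57.2, 36.3 and 28.2 against 2.14, 2.84 and 0.634 CPM (3.88 ± 0.37). Fasn, fatty acid synthase, read 1814, 1872 and 1759.6 against 769, 841 and 785 CPM (1.19 ± 0.15), and Scd2, a stearoyl-CoA desaturase, 10387, 10022 and 9597 against 4172, 4652 and 4268 CPM (1.2 ± 0.12), but both lost their call under the 3 other scalings and in edgeR and DESeq2 while keeping their direction. Cd36 was at or below 0.221 CPM, and Fabp4 and Adipoq were not analysed here.

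Of 15 tested adipogenic regulators, 1 was higher in AD and 1 in CH (1 to 2 and 0 to 1 over the scalings), against 9.01% and 16.5% of all tested genes. Klf3, a Kruppel-like repressor, read 195, 163 and 124 CPM in AD and 64.9, 80.3 and 67.8 CPM in CH (-1.15 ± 0.17), a call lost without AD replicate 1 (-0.997). Atf4, a factor of the amino acid response, read 1705, 1536 and 1487 CPM in CH and 535, 801 and 542 CPM in AD (1.35 ± 0.13), a call lost under quantile normalization and the same sum over the listed genes. Pparg was listed at 0, 0.177 and 0.950 CPM in AD and 0 in CH, and Cebpa at 0.356, 0.355 and 0.475 CPM in AD and 0.256, 0.221 and 0.445 CPM in CH, below the 3-read floor or near it, and no difference is read from these values. Cebpb and Cebpd were not analysed here.

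Of 12 tested genes known to respond to glucocorticoids, 2 were higher in CH and 4 higher in AD (2 and 4 to 5 over the scalings), against 16.5% and 9.01% of all tested genes. Tsc22d3 (GILZ), an established target of the glucocorticoid receptor, read 554, 515 and 406 CPM in CH and 379, 350.2 and 488 CPM in AD (0.28 ± 0.15, limma adjusted p = 0.137). Its 0 h samples stood at 31.1, 26.9 and 25.3 CPM, far below both groups, and its sign turned under quantile normalization and the same sum over the listed genes. Crispld2, a secreted protein of mesenchyme, read 2188, 1945 and 1738 CPM in CH and 211, 238 and 237 CPM in AD (3.09 ± 0.23), against 2.15, 2.79 and 2.58 CPM at 0 h. Mt2A, a metallothionein, read 5138, 5737 and 3928 CPM in AD and 1229, 932 and 915 CPM in CH (-2.26 ± 0.13). Steap4, a metalloreductase (-3.27 ± 0.22), and the growth arrest gene Gadd45a (-2.18 ± 0.30) were also higher in AD, whereas Gadd45b was higher in CH, at 379, 377 and 342 against 74.4, 89.7 and 105 CPM (2.03 ± 0.12). Of 9 tested genes that respond to cAMP, 3 were higher in AD (3 to 4 over the scalings), and Crispld2, which is on both lists, was higher in CH. The protein kinase A subunit Prkar2b read 199, 237 and 189 against 42.8, 32.7 and 34.5 CPM (-2.48 ± 0.14), the phosphodiesterase Pde4b 11.8, 9.58 and 13.5 against 5.90, 3.10 and 2.45 CPM (-1.44 ± 0.32), and the coactivator Cited2 209, 201 and 294 against 109, 80.7 and 76.9 CPM (-1.39 ± 0.13).

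Cytokines and chemokines had 9 of 17 tested genes higher in AD and 1 higher in CH, with a median of -1.45 (9 and 1 over the scalings, with a median of -1.77 to -1.45). In edgeR and DESeq2 11 were higher in AD, with medians of -3.12 and -3.14. Summed, the 30 listed genes of this group stood at 2004 to 4794 CPM in AD and 784 to 913 CPM in CH, lowest in AD in replicate 3. Of the haematopoietic markers (4 of 16 with values), Lyz2 was called higher in AD, at 1.42, 1.24 and 2.06 against 0, 0.442 and 0.222 CPM (-1.08 ± 0.21). It had 3 reads over the CH samples, a ratio of pooled CPM of 6.86 (95% interval 2.12 to 35.3). Its call was lost without AD replicate 3 (-0.948) and in DESeq2. Adgre1, which was not tested, read 1.60, 2.84 and 0.317 CPM in AD and 0 in CH. Spi1 was not called (-0.33 ± 0.25) and its samples overlapped, and Csf1r read 0.178 CPM in a single AD sample and 0 elsewhere. At 0 h the marker sum was 0.152 to 0.975 CPM and the cytokine sum 7123 to 7649 CPM. Cxcl1, a neutrophil chemokine, read 1790.3, 1656 and 1526 CPM in AD and 209, 231 and 188 CPM in CH (-2.98 ± 0.13, limma adjusted p = 4.58e-18), and 2996, 3574 and 3120.0 CPM at 0 h. Il6 read 6.94, 11.5 and 5.54 against 0.256, 0.884 and 0.222 CPM (-2.60 ± 0.29) with 43.4, 39.3 and 44.1 CPM at 0 h, and the receptor chain Il6st 6.77, 9.58 and 9.19 against 0, 0.884 and 0.445 CPM (-2.75 ± 0.35). Both groups were below 0 h for Cxcl1 and Il6, CH further below than AD. Cxcl14 read 75.9, 78.0 and 0.475 CPM in AD and 0.769, 0 and 0.222 CPM in CH, so AD replicate 3 overlapped CH, and its call was lost in the fit of the 6 samples alone. The exception was Tnfrsf12a, the receptor of the cytokine TWEAK, at 451, 417 and 353 CPM in CH and 43.8, 40.1 and 29.0 CPM in AD (3.42 ± 0.21). Of 17 tested genes of the interferon response and antigen presentation, 2 were higher in CH and 4 in AD (0 to 2 and 4 to 6 over the scalings), against 16.5% and 9.01% of all tested genes. Ifi27 led the AD side, at 49.0, 58.5 and 34.5 against 12.3, 10.8 and 12.2 CPM (-1.89 ± 0.21), and Ifit1 (1.05 ± 0.34) and Gbp5 (1.10 ± 0.37) were called on the CH side. These calls were lost under 6 and 9 of the 18 alternatives, among them the omission of AD replicate 3 (0.82 and 0.68) and edgeR, so that no gene of the list was higher in CH there.

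The Wnt pathway had 7 of 22 tested genes higher in AD and 5 higher in CH (7 and 4 to 5 over the scalings, 8 and 5 in edgeR and DESeq2), against 9.01% and 16.5% of all tested genes. Fzd4, a Wnt receptor, read 551, 634 and 697 CPM in AD and 34.1, 52.6 and 44.7 CPM in CH (-3.82 ± 0.16), and the membrane inhibitor Apcdd1 14.2, 15.8 and 13.9 against 0.769, 0.221 and 0.445 CPM (-3.42 ± 0.26). Beside Frzb, the secreted modulator Sfrp2 read 1702, 1696 and 36.7 CPM in AD and 133, 122 and 117 CPM in CH, with AD replicate 3 below every CH sample, so that the log2 fold change was -1.94 ± 0.75 with it and -3.77 without it. Its call was lost without any 1 of the other 5 samples. On the CH side were the feedback inhibitor Nkd1, at 34.1, 24.8 and 23.3 against 4.99, 3.90 and 5.54 CPM (2.28 ± 0.19), the ubiquitin ligase Rnf43 (1.24 ± 0.30), the receptor Fzd9 (1.26 ± 0.35, not called without CH replicate 3) and Lgr6, at 3.59, 1.77 and 1.78 CPM with no read in AD, at least 4.63-fold higher. In the IGF system, 2 of 6 tested genes were higher in CH and 2 in AD (2 and 2 over the scalings, 1 and 2 in DESeq2). Igfbp5, an IGF-binding protein, stood at 33332, 32936 and 31633 CPM in CH and read 14952, 14956 and 380.5 CPM in AD. AD replicate 3 held a small fraction of the level of the others, and the log2 fold change was 2.89 ± 0.74 with it and 1.13 without it, while the call was lost in the fit of the 6 samples and in DESeq2. Igfbp3 (5.13, 1.77 and 1.11 CPM in CH, no read in AD, at least 5.20-fold higher) was the other gene higher in CH. Stc1, stanniocalcin (-1.50 ± 0.25), and Pappa2, which cleaves IGF-binding proteins (-1.18 ± 0.32, not called without AD replicate 3), were higher in AD.

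Of 20 tested genes of hypoxia and glycolysis, 2 were higher in CH, the factors Bhlhe40 and Bhlhe41, and 4 in AD (2 and 4 to 6 over the scalings), against 16.5% and 9.01% of all tested genes. The lactate carrier Slc16a1 read 2856, 2412 and 3223 CPM in AD and 348, 294 and 288 CPM in CH (-3.18 ± 0.10), and Pfkfb3, an activator of glycolysis, 3.03, 4.97 and 15.998 against 0, 0 and 0.889 CPM (-2.59 ± 0.38). The prolyl hydroxylase gene Egln3 (-1.2 ± 0.23) was also higher in AD, a call lost without AD replicate 2. Ndrg1 (-1.09 ± 0.28) was called as well, at 327, 333 and 76.7 CPM in AD and 96.7, 91.3 and 96.7 CPM in CH, and AD replicate 3 lay below all CH samples. Its value was -1.79 without that sample, and its call was lost without AD replicate 1 (-0.75) or 2 (-0.74) and in the fit of the 6 samples alone. Epas1, the hypoxia-inducible factor HIF-2 alpha, read 2334, 2126 and 1944 CPM in CH and 1838, 1755 and 1135 CPM in AD and stayed below the fold threshold (0.47 ± 0.15). It was above its 0 h level of 366, 383 and 380.3 CPM in both groups, and its sign turned under quantile normalization and the same sum over the listed genes.

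Genes of cholesterol synthesis and its control leaned to CH, with 8 of 13 tested genes higher in CH and 1 in AD and a median of 1.31. Cyp51, the lanosterol demethylase, read 1785, 1579 and 1448 CPM in CH and 334, 315 and 456 CPM in AD (2.13 ± 0.14), and Sqle, the squalene epoxidase, 855, 885 and 831 against 158, 188 and 307 CPM (2.03 ± 0.15). Insig1, a sterol-regulated brake on the pathway, read 983, 930.3 and 913 against 268, 284 and 458 CPM (1.52 ± 0.16). Sc5d, the sterol C5-desaturase, read 32.3, 21.4 and 22.5 against 6.23, 7.09 and 13.5 CPM (1.46 ± 0.21), a call lost with the same sum over the listed genes. In all of these AD replicate 3 was the AD sample nearest to CH, and none of its values reached a CH sample. The cholesterol exporter Abca1 was higher in AD, at 2.14, 4.97 and 4.75 against 0.513, 0.663 and 1.56 CPM (-1.35 ± 0.34), a call lost with a pseudocount of 0.1. Cyp51 stood at 1056, 1148 and 1112 CPM at 0 h, from which the fitted change was 0.53 in CH and -1.60 in AD, and these changes share the 0 h samples. The number higher in CH ranged from 3 to 8 over the scalings and that in AD from 1 to 2, lowest with the same sum over the listed genes, so the count depends on the scaling, and the median lay between 0.82 and 1.31.

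Of 49 tested cell cycle genes, 22 were higher in CH and 1 in AD, with a median of 0.69 (0.64 with genes lacking reads in a group set at their bound), and 20 to 22 were higher in CH and 1 to 2 in AD over the scalings, with a median of 0.57 to 0.74. In edgeR and DESeq2 24 were higher in CH, with medians of 1.91 and 1.89. Kif20a, a kinesin of cytokinesis, read 239, 195 and 201 CPM in CH and 3.74, 4.97 and 1.43 CPM in AD (5.69 ± 0.20). Nuf2, part of the outer kinetochore, read 115, 104 and 103 against 2.67, 2.48 and 1.11 CPM (5.17 ± 0.21), and Birc5, survivin of the chromosomal passenger complex, 64.6, 48.9 and 44.5 against 0.712, 0.709 and 0.317 CPM (5.08 ± 0.19). Hmmr, a spindle-associated protein, read 94.1, 86.7 and 81.6 against 2.49, 3.19 and 2.38 CPM (4.59 ± 0.24). In these genes the CH samples lay within a narrow range, AD stayed below 5 CPM, and the 0 h samples stood in between, with 104, 113 and 90.8 CPM for Kif20a and 14.3, 21.9 and 12.7 CPM for Birc5. Cenpa, the centromeric histone H3 variant, had 15.9, 16.6 and 15.6 CPM in CH and 1 read over the AD samples, a ratio of pooled CPM of 281 (95% interval 49.96 to 11171). The gene higher in AD was Zwint (-1.01 ± 0.08), which lost its call without CH replicate 2 (-0.999) or 3 (-0.991) or AD replicate 3 (-0.929). Against 0 h, 9 members were higher and 1 lower in CH at 72 h, where 11.6% and 6.37% of all tested genes were called in these directions. In AD at 72 h 1 was higher and 19 lower, against 6.19% and 9.08% of all tested genes, and both comparisons share the 0 h samples. Mki67 was not analysed here.

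Many promoters of genes that peak in G2 and mitosis carry a CCAAT box and a cell cycle genes homology region, which recruit NF-Y and the DREAM and MuvB complexes, and promoter sequence was therefore set beside the values. The 250 bases before the annotated start were taken from RefSeq promoters of rat assembly GRCr8, for 20 of the 22 cell cycle genes higher in CH, and searched on both strands for CCAAT and TTTGAA. The following are the 3 genes of largest difference that hold both motifs and the first that holds neither, chosen after their values were seen, 5′ to 3′ on the gene's strand with motif matches on either strand in capitals and no overlapping matches.
Birc5: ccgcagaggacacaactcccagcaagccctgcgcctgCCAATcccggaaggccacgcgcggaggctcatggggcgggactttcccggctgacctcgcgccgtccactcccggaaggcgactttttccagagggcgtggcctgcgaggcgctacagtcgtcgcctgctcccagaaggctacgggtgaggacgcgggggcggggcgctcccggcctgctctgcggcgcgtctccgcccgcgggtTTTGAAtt
Hmmr: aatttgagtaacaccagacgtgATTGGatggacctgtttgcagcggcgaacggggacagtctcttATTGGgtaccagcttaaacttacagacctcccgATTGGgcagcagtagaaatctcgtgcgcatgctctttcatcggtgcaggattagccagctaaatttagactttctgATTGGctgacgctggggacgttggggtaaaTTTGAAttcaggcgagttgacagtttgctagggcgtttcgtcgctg
Cdc20: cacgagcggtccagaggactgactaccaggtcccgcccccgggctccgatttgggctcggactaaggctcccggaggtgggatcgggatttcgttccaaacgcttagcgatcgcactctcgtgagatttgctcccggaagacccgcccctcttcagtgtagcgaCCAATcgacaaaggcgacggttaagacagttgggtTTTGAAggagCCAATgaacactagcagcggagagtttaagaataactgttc
Nuf2: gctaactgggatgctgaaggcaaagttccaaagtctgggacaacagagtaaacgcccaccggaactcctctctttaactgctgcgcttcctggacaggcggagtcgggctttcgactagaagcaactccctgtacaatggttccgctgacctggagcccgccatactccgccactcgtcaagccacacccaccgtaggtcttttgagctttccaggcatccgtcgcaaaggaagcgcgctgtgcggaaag
They lie at chr10:103571896-103572145 (Birc5, plus strand), chr10:25665216-25665465 (Hmmr, minus strand), chr5:137255800-137256049 (Cdc20, minus strand) and chr13:84255599-84255848 (Nuf2, minus strand). Cdc20, the activator of the anaphase-promoting complex, read 78.7, 75.6 and 63.6 CPM in CH and 3.38, 1.60 and 3.01 CPM in AD (4.36 ± 0.26). The Birc5 window holds 1 TTTGAA, which begins 8 bases before the start, and 1 CCAAT, Hmmr 1 TTTGAA and 4 CCAAT matches, and Cdc20 1 TTTGAA and 2 CCAAT matches. Of the 20 promoters, 17 (85%) hold CCAAT and 10 (50%) TTTGAA, and all 10 also hold CCAAT. Of the 19 promoters of tested cell cycle genes that were not higher in CH, 9 (47.4%) hold CCAAT and 3 (15.8%) TTTGAA. Of the 27457 promoters of this length, 34.3% hold CCAAT and 16.03% TTTGAA, and of the 3206 promoters of tested genes 34.8% and 10.2% do. Nuf2, without either motif in its window, had a log2 fold change of 5.17 beside the 5.08 of Birc5. A match is a description of letters, and binding was not measured.

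The direction of the cell cycle genes was not that of 12 h. At 12 h 1 of the 49 was higher in CH and 32 were higher in AD, with a median of -1.37, where 7.04% and 6.56% of all tested genes were called in these directions. AD replicate 1 at 12 h lay apart, with 24 genes more than 2 log2 units from the mean of the other AD samples of that time against 2 for each of those, and listed genes in 64.6% of its reads against 54.2 and 54.3%. Without it 1 of the 49 was higher in CH and 29 in AD at 12 h, 35 changed toward CH and 1 toward AD by 72 h, and 18 cell cycle genes turned, an alternative chosen after seeing the data. Kif20a had a log2 fold change of -1.71 at 12 h and 5.69 at 72 h, Nuf2 -2.17 and 5.17, Birc5 -1.82 and 5.08, and Hmmr -2.10 and 4.59. Kif20a stood at 103 ± 11.0 CPM at 0 h, at 219 ± 2.17 in CH and 747 ± 268 in AD at 12 h, and at 212 ± 23.9 in CH and 3.38 ± 1.80 in AD at 72 h (mean ± SD, n = 3). The change of the difference from 12 h to 72 h was tested itself, and 37 of the 49 moved toward CH (37 to 38 over the scalings, 35 and 36 in edgeR and DESeq2) and 1 toward AD, against 13.0% and 6.26% of all tested genes. In 57 genes (1.31%) both differences were called with opposite signs and their change was called, 53 (1.21%) from higher in AD to higher in CH and 4 (0.0917%) the other way. Of the 57, 20 were members of the cell cycle list and 8 had symbols of replication-dependent histones, whose transcripts share near-identical sequence and may share reads. Of 18 tested genes with such symbols, 14 were higher in AD at 12 h and 9 higher in CH at 72 h. The 4 genes that turned the other way, named after their values were seen, were Ace, the angiotensin-converting enzyme (1.66 at 12 h and -3.84 at 72 h), Wisp2 (2.07 and -1.23), Stmn2 (1.01 and -1.15) and LOC100911545 (1.33 and -1.66). The turn of Wisp2 was not called under 3 of the 18 alternatives, among them without CH replicate 1 and without AD replicate 2. That of Stmn2 was not called under 7, among them edgeR, DESeq2 and the omission of CH replicate 2 or AD replicate 1 or 2.

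**Figure D3:**
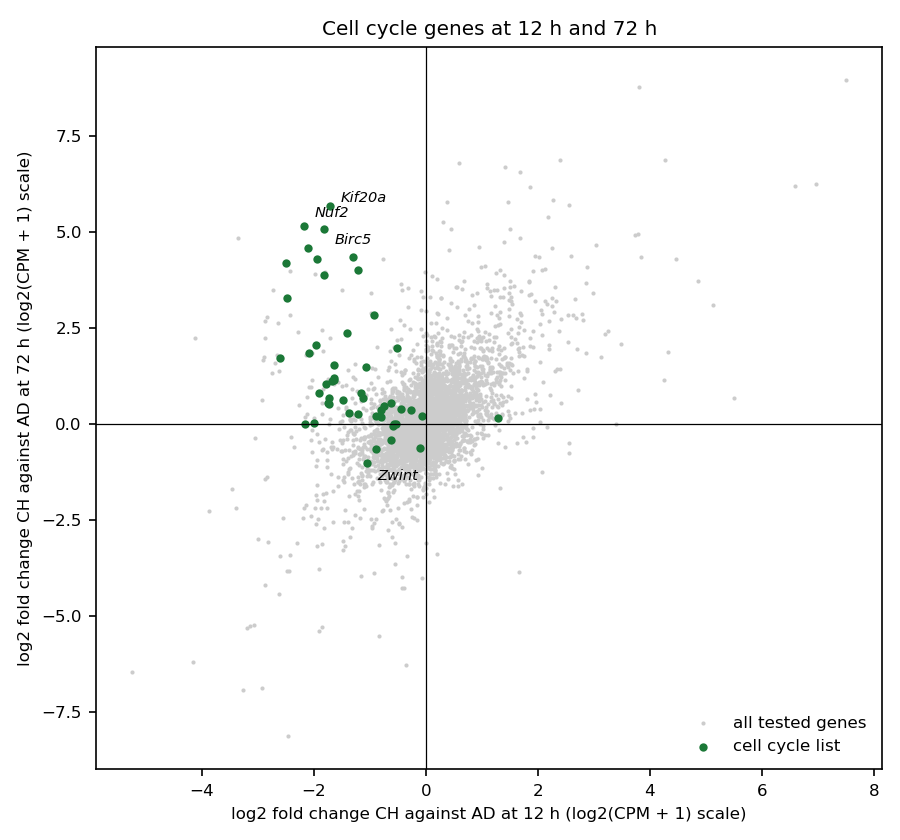
Log2 fold change of CH against AD at 12 h (x axis) and at 72 h (y axis), both on the log2(CPM + 1) scale, for all 4363 tested genes (grey) and the 49 of the cell cycle list (green). In 41 of the 49 the point lies at the upper left, below 0 at 12 h and above 0 at 72 h, whether called or not, with Kif20a, Nuf2 and Birc5 highest and Zwint below 0 at both times.

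The other leading genes differed in when they separated. Sox9 was already apart at 3 h, with log2 fold changes of 5.07 (3 h), 6.6 (12 h) and 6.22 (72 h), and rose in CH from 48.1 ± 2.38 CPM at 0 h to 603 ± 36.8, 638 ± 77.4 and 1299 ± 173 CPM (mean ± SD, n = 3). Scx kept a like difference from 12 h (3.85) to 72 h (4.35). Of the 9 tested cartilage matrix genes, 2 were higher in CH at 12 h, against 7.04% of all tested genes. The change to 72 h was called toward CH in 5 of the 9 and toward AD in 1 (2 and 0 in edgeR, 3 and 0 in DESeq2), against 13% and 6.26% of all tested genes. Comp stood at -0.02 at 12 h, and its change of 3.97 ± 0.33 passed in limma but not in edgeR. On the AD side, Lpl went from -1.23 at 3 h to -2.93 at 12 h and -6.86 at 72 h. Its CH samples fell from 720.3 ± 56.7 CPM at 0 h to 86.1 ± 9.59 CPM at 12 h and 13.9 ± 0.659 CPM at 72 h. Its AD samples of 72 h were above 0 h, as given above. Dgat2 was at -0.55 at 12 h and -3.09 at 72 h, and Aox1 at -3.27 and -6.92. Cxcl1 stood at -3.00 at 12 h and -2.98 at 72 h, and its change was not called. Tsc22d3 was higher in AD at 12 h (-1.86) and not called at 72 h, and its change of 2.13 ± 0.22 passed. Over all tested genes, 408 (9.35%) were called between CH and AD at 3 h, 224 (5.13%) higher in CH and 184 (4.22%) higher in AD, against 593 (13.6%) at 12 h and 1113 at 72 h, and 841 (19.3%) changed their difference from 12 h to 72 h.

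**Figure D4:**
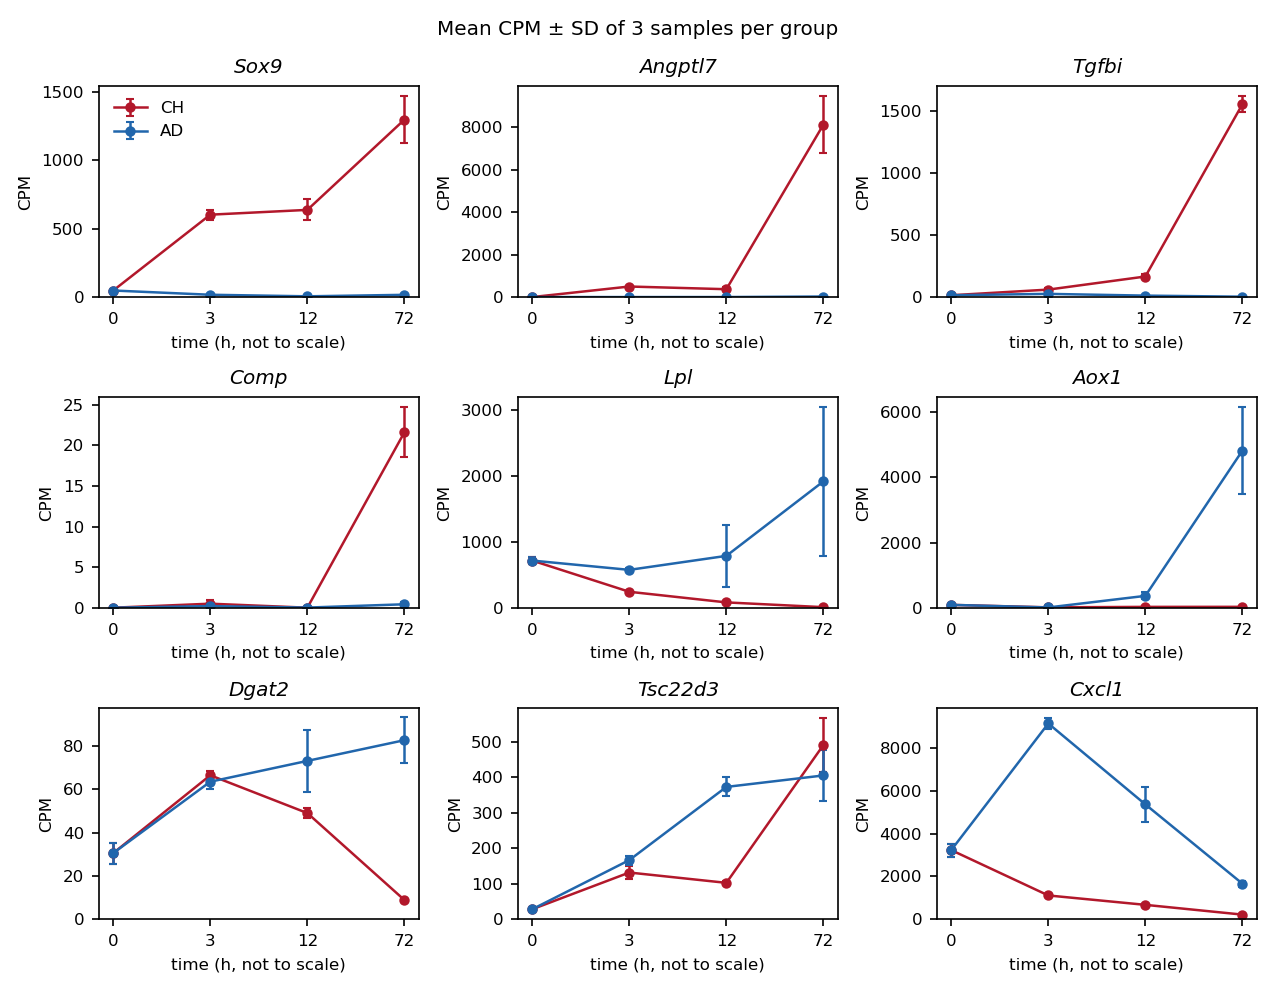
Mean CPM ± SD of 3 samples for 9 genes at 0, 3, 12 and 72 h of chondrogenesis (red) and adipogenesis (blue), with both lines starting from the same 0 h samples and the time axis not to scale. Sox9 separates at 3 h, Tgfbi already differs at 12 h and more at 72 h, Comp at 72 h, Lpl and Dgat2 end lowest in CH, and Tsc22d3 is high in both at 72 h.

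Of the 142 transcription factors that the study lists, 131 could be tested at 72 h, 27 higher in CH and 12 higher in AD, against 16.5% and 9.01% of all tested genes. The study chose this list on these samples, so it is not independent evidence, and the counts were 19 to 27 and 12 to 29 over the scalings, 19 and 29 with the same sum over the listed genes. Beside Sox9, Scx, Bhlhe41 and Cenpa, the AD side was led by Ehf, an epithelial ETS factor, at 13.5, 14.7 and 14.1 CPM in AD and 1 read over the CH samples, a ratio of pooled CPM of 182 (95% interval 32.4 to 7232), by Nfia, at 10.1, 8.33 and 11.6 against 0.256, 1.33 and 0.667 CPM (-2.69 ± 0.27), and by the odd-skipped factor Osr1, at 6.94, 4.79 and 4.75 CPM with no read in CH, at least 7.85-fold higher over the floor. Snai2, the factor Slug, read 257, 257 and 298 CPM in AD and 98.98, 74.7 and 78.5 CPM in CH (-1.68 ± 0.28) and 7.59, 5.85 and 7.89 CPM at 0 h, so both groups were above 0 h and AD was above CH. Hopx read 0.769, 0.884 and 0.889 CPM in CH and 0, 0.709 and 0.475 CPM in AD and was not called (0.44 ± 0.31).

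The size of some differences rested on AD replicate 3. Of the 74 genes in which it lay more than 2 log2 units from the mean of the other AD samples, 47 were called with it and 55 without it, and 14 changed sign, none of them among the genes called in both fits. The largest gaps were those of Cxcl14, Lum, Sfrp2, Igfbp5 and Cxcl6, described above. For genes in which AD was high, its lower level made the difference smaller, as in Lum, Cxcl6 and Mmp13, and for genes in which CH was high it made the difference larger, as in Igfbp5, Itgbl1 and Nov. What set this sample apart was not tested.

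**Figure D5:**
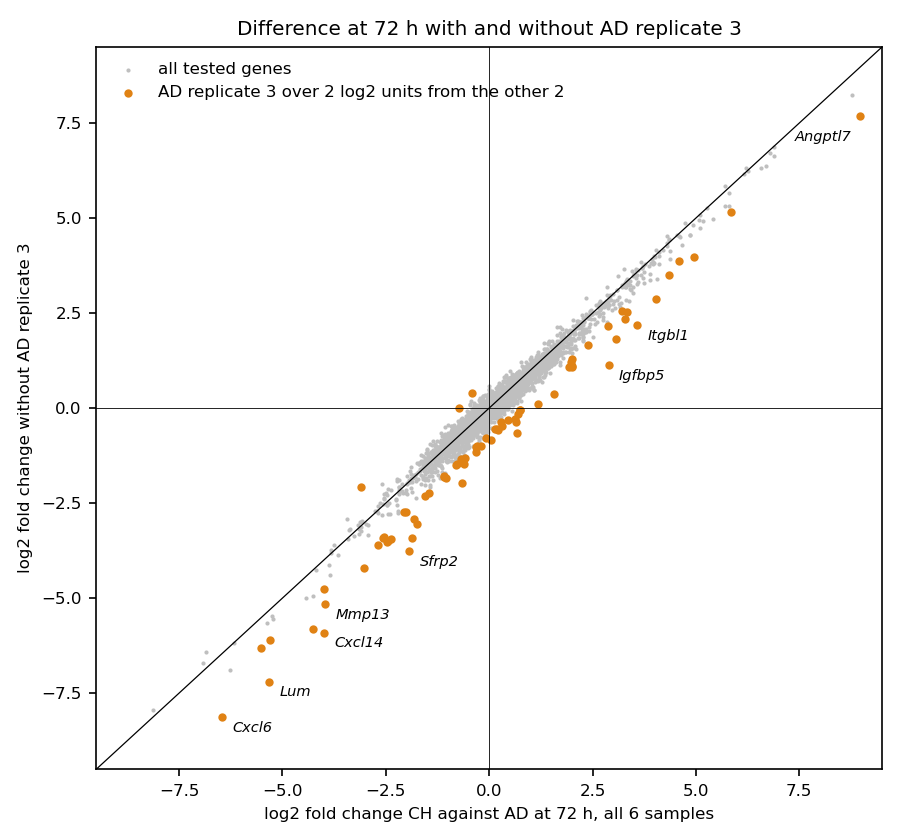
Log2 fold change of CH against AD at 72 h with all 6 samples (x axis) and without AD replicate 3 (y axis) for all 4363 tested genes, with the 74 genes in which that sample differs by more than 2 log2 units from the mean of the other AD samples in orange and the line of equal values in black. Most orange points lie below the line, such as Lum at -5.31 and -7.20 and Igfbp5 at 2.89 and 1.13.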

How the data were processed

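The authors deposited 1 table per sample with a column named FPKM, after Trimmomatic, HISAT2 and StringTie per the labels (genome build and versions not given in the sources used here). As deposited, the values are CPM that the authors made by dividing reads by the total of the sample, because 100% of them in each of the 30 tables were whole multiples of the sample's step within 0.01 of a read, which gave back the reads. The labels describe ribosomal RNA removal and the methods mRNA libraries. Each table has 10803 rows under 9999 gene names, and rows sharing a name (729 names) were summed. Names turned into dates (15) were kept.

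The 4363 names that reached 1 CPM in 3 or more of the 30 samples were tested with limma 3.58.1 (R 4.3.3, trend) on log2(CPM + 1) over all 10 groups, with contrasts for CH against AD at each time point and for the change from 12 h to 72 h, at a log2 fold change of 1 and a Benjamini-Hochberg adjusted p of 0.05. This test was chosen when the unit was thought to be FPKM, and it was kept. Named genes were the 12 of largest size in each direction whose samples did not overlap and whose call held without AD replicate 3, up to 4 called members per direction in each of 22 lists, and lineage genes whatever their result. Of these, 1 gene is not reported here and was left out of its list. The comparison, the named genes and the lists were chosen with earlier results of these data known. A group without reads was set to 3 reads per library for a lower bound, ratios against 1 to 3 reads carry exact 95% binomial intervals for counting error, and intervals cover counting error only. The 18 alternatives include edgeR 4.0.16 and DESeq2 1.42.0 on the recovered reads. Scripts were tested on simulated data. Python 3.11.15 and scipy 1.17.1 were also used. Osteogenesis at 72 h was not compared.

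Same-numbered CH and AD samples at 72 h had deviations from their group means that correlated at 0.086, 0.012 and 0.079 across genes for replicates 1, 2 and 3, and the numbers were not taken as pairs.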

Additional observations from a re-analysis of the deposited data

Results flagged for a closer look

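The difference between CH and AD changed from 12 h to 72 h by its own limma test in 841 of 4363 genes, 568 toward CH and 273 toward AD. The genes below were picked out because this change passed for them. Each value is the log2 fold change of CH against AD at 72 h minus that at 12 h.

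Toward CH, the leading genes moved by 6.20 for Dclk3, 5.27 for Ibsp, 4.98 for Tgfbi, 4.89 for LOC102547056, 4.49 for Lama1, 4.32 for Nptx1, 4.32 for Cd109 and 3.57 for Pdgfrl. Among the lineage genes the change was 3.97 for Comp, 3.87 for Igfbp5, 2.13 for Tsc22d3, 1.77 for Snai2, 1.45 for Mgp and 1.07 for Fasn. Without AD replicate 3 the change of Igfbp5 was 2.11, and its call was lost in the fit of the groups compared alone. In Snai2, AD was higher at both times, by less at 72 h.

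Toward AD, the change was -5.91 for C4b, -5.67 for Akr1cl, -4.69 for Vat1l, -3.93 for Lpl, -3.65 for Aox1, -3.47 for Enpp3, -3.44 for Frzb, -2.16 for Ptn, -2.12 for Plpp3, -2.03 for Tgfbr3 and -1.64 for Plin1. C4b, Vat1l and Plin1 were not called between CH and AD at 12 h. In edgeR the change was not called for Dclk3, Comp, Akr1cl, C4b, Vat1l, Frzb and Fasn. The change of Fasn was lost under the 3 other scalings, in edgeR and DESeq2 and, in an alternative chosen after seeing the data, without CH replicate 3 or AD replicate 1 of 12 h, that of Frzb also with a pseudocount of 0.1, and that of Mgp with quantile normalization. Sox9, Angptl7, Sema7a, Lum and Cxcl6 were called at both times, with no called change.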

How the results depend on the processing

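The total of 1113 genes called at 72 h was 1014 to 1429 under the 18 alternatives, and no called gene among those named changed sign. Of 129 named genes called, 106 kept their call under every alternative that could test them. The 23 genes of largest difference are among these, but their call without AD replicate 3 was part of how they were chosen. The number higher in AD (393) moved to 598 with a pseudocount of 0.1, 742 with the same sum over the listed genes, 652 in edgeR and 654 in DESeq2. For the change from 12 h to 72 h, the number toward CH (568) was 367 in edgeR and 369 in DESeq2, and the number toward AD (273) was 447 with the same sum over the listed genes. The cause was not tested beyond the shift of the median in these settings. Without 1 replicate, 1065 to 1186 genes were called at 72 h, 664 to 778 higher in CH and 369 to 424 higher in AD, and 750 to 874 for the change, 516 to 609 toward CH and 222 to 289 toward AD, with the samples of 12 h left out in turn as well, which was chosen after seeing the data.

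Signs of genes that were not called turned in Tsc22d3 (-0.242 with quantile normalization, -0.218 with the same sum), Epas1 (-0.0243 and -0.0322), Mgp (-0.0759 with quantile normalization) and Cebpa (0.0205 in samples thinned to 3899609 reads). With the replicate number as a block, 1113 genes were called at 72 h, all of them among the 1113, and 838 for the change, and the pairing of numbers was not shown by the data. Genes that turned numbered 51 to 70 over the scalings, edgeR and DESeq2, 48 to 52 of them among the 57, and 18 to 23 were cell cycle genes, 18 or 19 of them among the 20.

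At this depth Pparg, Cebpa, Col2a1 and Alpl lay at or near the 3-read floor in both groups, and whether depth sets these values was not tested.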
